A study of Homo sapiens with 6 samples.

Results

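The AP-1 family was examined in EJ bladder cancer cells with and without FOXA1 transfection. Its 10 genes were FOS, FOSB, FOSL1, FOSL2, JUN, JUNB, JUND, ATF3, BATF and MAFF. They were read at every probe set (a group of short oligonucleotides for 1 transcript) whose array annotation gives exactly 1 symbol, that of a family gene. This gave 23 of the 54613 probe sets tested, and 10 of the 19775 genes with such a probe set. EJ/T24 cells are a long-established line from a human invasive bladder carcinoma. The FOXA1 group held 3 HG-U133 Plus 2.0 arrays of EJ cells transfected with a FOXA1 construct. The control group held 3 arrays of EJ cells given a plasmid labelled pUC19 (Empty). The paper's methods instead name pcDNA3 as the vector of FOXA1, with an empty vector as control. Whether the groups also differ in the plasmid around the insert cannot be told here. Both groups were grown in DMEM with fetal serum and received 24 μg of DNA with a lipid reagent, and the labels give no time after transfection. Transfection reaches a part of the cells in a dish, so each signal averages over transfected and untransfected cells, fewer cells of a type and less RNA per cell cannot be told apart, and all cells are of 1 line. The methods say that the transfections were done in triplicate, but neither they nor the labels tie each array to a dish of its own, so p-values measure the spread between arrays, which may be in part technical.

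AP-1 is a dimer of basic leucine zipper proteins. JUN, JUNB and JUND can pair with each other, whereas FOS, FOSB, FOSL1 and FOSL2 bind DNA as partners of a JUN protein. ATF3 and BATF also pair with JUN proteins, and MAFF is a small MAF protein without a transactivation domain. FOS, FOSB, JUN, JUNB and ATF3 are immediate early genes, whose short-lived mRNAs appear within minutes of growth factor or stress signals. FOSL1 is induced later and is sustained by RAS and ERK signaling, and the family drives proteases and growth factors of invasive carcinoma.

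Letters that match binding motifs of AP-1, CREB and forkhead factors in the family's own promoters are shown, because several members are known to be AP-1 or CREB targets themselves and FOXA1 is a forkhead factor. RefSeq promoter windows (GRCh38.p14, 250 bases before to 50 after a start site) were matched for 9 of the 10 genes, 11 windows in all, with none printed for FOSL1. Searched on both strands were the TRE (TGACTCA), the CRE (TGACGTCA), the JUN-type site (TGACATCA), the shorter CRE core (TGACG), which lies inside the CRE, and the forkhead motif of FOXA proteins (TGTTTAC). Capitals mark the motif, and each line runs 5′ to 3′ on the strand of the gene.
JUN, JUN-type site, chr1:58784087-58784134, minus strand: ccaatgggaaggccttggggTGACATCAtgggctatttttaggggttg
ATF3, JUN-type site, chr1:212565264-212565311, plus strand: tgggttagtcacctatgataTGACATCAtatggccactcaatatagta
JUND, CRE, chr19:18281795-18281842, minus strand: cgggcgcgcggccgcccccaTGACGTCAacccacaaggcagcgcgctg
MAFF, CRE, chr22:38201920-38201967, plus strand: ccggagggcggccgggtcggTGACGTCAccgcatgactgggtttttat
FOSL2, TRE, chr2:28392842-28392888, plus strand: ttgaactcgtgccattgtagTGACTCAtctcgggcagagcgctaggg
FOS, CRE core, chr14:75278744-75278788, plus strand: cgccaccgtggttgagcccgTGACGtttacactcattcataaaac
JUNB, forkhead motif, chr19:12791300-12791346, plus strand: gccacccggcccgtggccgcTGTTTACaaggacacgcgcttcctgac

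JUN and ATF3 thus shared the letters TGACATCA, 67 and 123 bases before their start sites, which 2.61% of the 35116 promoter windows also held. The CRE of JUND and MAFF, 200 and 54 bases before the start, was in 1.85% of windows, the TRE in 4.95%, the CRE core in 24.6% and the forkhead motif in 3.42%. The CRE core, printed above for FOS, was also in windows of FOSB, FOSL2, JUN, JUNB, JUND and MAFF. Among the family only JUNB held the forkhead letters in these windows. These are matches of letters, and binding was not measured here.

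The signals are MAS5 values on a linear scale, which the authors scaled to a trimmed mean of 100.01 in each array. Median signals were 14.4 to 17.5 in FOXA1 transfected arrays and 12.3 to 16.1 in control arrays. FOXA1 itself was read by 2 probe sets. The brighter had 38.9, 34.8 and 31.9 in FOXA1 transfected arrays, against 21.8, 24.4 and 21.0 in control arrays, without overlap (log2 difference 0.65, SE 0.23, adjusted p = 0.307 from limma, and p = 0.1 in the exact two-sided permutation test, the smallest that 3 arrays against 3 allow). At the dimmer probe set the means were 5.30 in FOXA1 transfected and 7.07 in control arrays (log2 difference -0.54). Signed values give FOXA1 transfected minus control, with arrays assigned by their sample labels. They run opposite to the signs in the study's own table of changed genes, which holds no AP-1 gene, and which of the labellings is right cannot be told apart here. The ACTB 3' to 5' ratio, a sign of RNA quality, was 2.37 ± 0.228 in FOXA1 transfected and 1.73 ± 0.188 in control arrays (SD, n = 3 each), without overlap, while the GAPDH ratio was 0.920 in FOXA1 transfected and 0.899 in control arrays. VIM, of mesenchymal cells, had signals of 3494 to 4460 in FOXA1 transfected and 3567 to 4017 in control arrays, and KRT18, of epithelial cells, had 2359 to 2544 in FOXA1 transfected and 2080 to 2405 in control arrays, whereas the epithelial cadherin CDH1 was at 1.0 to 5.3 in FOXA1 transfected and 0.6 to 2.0 in control arrays. Of 17 measured markers of leukocytes, endothelium, muscle and nerve, 13 lay above 0 and 4 below, with 0 passing limma and summed signals of 200.7 to 237 in FOXA1 transfected and 154.2 to 197.1 in control arrays. PTPRC, of leukocytes, was at 6.8 to 7.9 in FOXA1 transfected and 5.6 to 10.4 in control arrays, and CD14, of monocytes, at 0.8 to 3.0 in FOXA1 transfected and 0.9 to 1.8 in control arrays. PECAM1, of endothelium, was the brightest of the 17, at 42.8 to 54.9 in FOXA1 transfected and 30.5 to 42.2 in control arrays. Of 12 epithelial and urothelial markers 9 were higher and 3 lower in FOXA1 transfected cells without any passing, and of 5 mesenchymal markers 2 were higher and 3 lower, also without any passing. KRT18 was the brightest of the 12, whose median signal was 3.7 to 8.9 in FOXA1 transfected and 5.8 to 6.95 in control arrays. Groups did not overlap for the mesenchymal CDH2 and FN1, at log2 differences of -0.45 and -0.88. They also did not for the epithelial KRT7 (0.37) and the endothelial PECAM1 (0.47). FN1 was read at a probe set of the _x_at kind, which can bind related transcripts. It had 20.7, 5.9 and 19.5 in FOXA1 transfected arrays, against 25.3, 22.1 and 26.3 in control arrays (SE of the log2 difference 0.46). Over all probe sets 10.5% had FOXA1 transfected arrays above all control arrays, and 5.86% below. The part of RNA quality and of these markers in the results that follow was not tested.

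FOSL1, the Fra-1 protein, was the 1 family gene whose groups did not overlap. Its signals were 148.4, 193.0 and 171.7 in FOXA1 transfected arrays, against 83.4, 74.5 and 117.0 in control arrays. Every FOXA1 transfected array lay above every control array, with means of 171 ± 22.3 in FOXA1 transfected and 91.6 ± 22.4 in control arrays (SD, n = 3 each). The geometric means differed 1.89-fold, a log2 difference of 0.92 (SE 0.17, 95% interval 0.55 to 1.29), where the median of all probe sets was 0.08. FOSL1 did not pass limma over all probe sets (adjusted p = 0.0941, unadjusted p = 0.0002058), and the exact two-sided permutation test gave p = 0.1. It passed in 1 of 14 alternatives, where dim probe sets were left out before adjustment (adjusted p = 0.0390, whereas the alternatives spanned 0.0390 to 0.526). The difference was 0.74 with each array centred on its median, 0.89 after quantile normalization, and 0.78 to 1.11 without 1 array.

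Over the family, 0 of 23 probe sets passed limma at an adjusted p of 0.05. SAM, written here and run on log2 MAS5 signals, also called 0. It called 3 of all 54613 probe sets, so it could hardly have called a family probe set. The methods name SAM on RMA values, which were not used here. Over all 54613 probe sets limma called 21 higher (0.0385%) and 11 lower (0.0201%). At an unadjusted p under 0.05 there was 1 family probe set higher and 0 lower, beside 7.06% and 4.27% of all probe sets. Groups without overlap were found at 1 family probe set, that of FOSL1, with FOXA1 transfected arrays above and at 0 below, beside 10.5% and 5.86% of all probe sets. By these counts the family did not stand out from the array. Log2 differences were positive at 13 of the 23 probe sets and negative at 10 (median 0.06). At the brightest probe set of each gene they lay above 0 for 5 genes and below 0 for 5. Their median was 0.09, against 0.08 over all genes, of which 59.2% lay above 0, and with each array centred on its median these were -0.10 and -0.11.

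**Figure D1:**
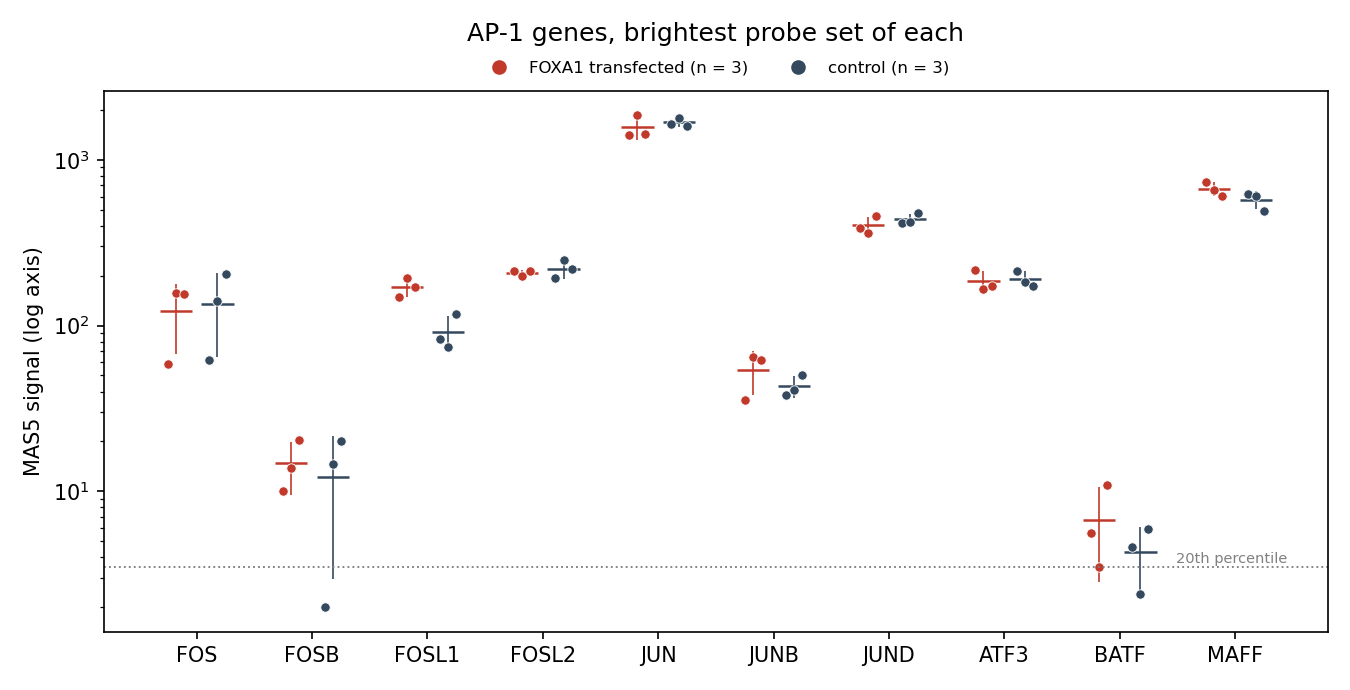
MAS5 signal on a log axis at the brightest probe set of each of the 10 AP-1 genes, with points for arrays, horizontal lines for means, vertical bars for SD (n = 3 each) and a dotted line at 3.5, the 20th percentile of all signals. FOSL1 is the gene whose groups do not overlap, at 148.4 to 193.0 in FOXA1 transfected and 74.5 to 117.0 in control arrays.

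FOS, the partner that gives AP-1 its strongest transcriptional activity, varied far more between arrays of a group than between groups. Its signals were 59.0, 156.6 and 154.2 in FOXA1 transfected arrays, against 62.4, 140.5 and 204.5 in control arrays. The array numbered 1 was the lowest in both groups, and the groups overlapped. The highest array was 2.65 times the lowest in FOXA1 transfected cells and 3.28 times in control cells. The log2 difference was -0.11 (SE 0.43, adjusted p = 0.951 from limma), and its 95% interval of -1.05 to 0.83 leaves a difference of either sign possible. Without FOXA1 transfected array 1 it was 0.35, and without control array 3 it was 0.27. The SD of log2 FOS signals within groups was 0.84, larger than at 97.8% of the probe sets above the median signal, whose median SD was 0.19.

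FOSB, the immediate early relative of FOS, had signals of 10.0, 13.9 and 20.3 in FOXA1 transfected arrays, against 2.0, 14.6 and 20.1 in control arrays. The lowest arrays were again those numbered 1, and control array 1 lay under 3.5, the 20th percentile of all signals. The log2 difference, 0.76 with an SE of 0.77 (limma adjusted p = 0.762), turned to -0.28 without that array. JUNB, a weaker activator than JUN on many promoters, had 35.7, 64.4 and 62.1 in FOXA1 transfected arrays, against 38.0, 40.8 and 50.6 in control arrays. The groups overlapped through the low FOXA1 transfected array 1 (log2 difference 0.29, SE 0.24, adjusted p = 0.701 from limma), and without it the difference was 0.56 (adjusted p = 0.392). Without FOXA1 transfected array 2 the JUNB difference was 0.14, without array 3 it was 0.16, and with each array centred on its median 0.11. FOS, FOSB and JUNB were thus the 3 of 10 family genes lowest in array 1 of both groups, a pattern found at 8.49% of probe sets above the median signal. FOSB and BATF are not above that median, so the sets are not quite alike.

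Of 25 other immediate early genes measured, 5 had the same pattern of arrays, namely EGR1, IER2, IER5, GADD45B and SGK1, and they are named for it after their values were seen. EGR1, a zinc finger factor induced through the same serum response elements as FOS, had 1105.7, 1973.7 and 2333.1 in FOXA1 transfected arrays, against 738.3, 1171.9 and 1844.2 in control arrays. IER2 had 1123.7, 1525.5 and 1473.6 in FOXA1 transfected arrays, against 882.8, 1112.4 and 1479.5 in control arrays. Both overlapped between groups, with log2 differences of 0.56 (adjusted p = 0.537 from limma) and 0.27 (adjusted p = 0.596). Another 7 of the 25, DUSP1, CCN1 and MYC among them, were lowest in array 3 of both groups, and 5 in array 2. Over probe sets above the median signal these patterns had shares of 13.0% and 17.6%, whereas the 25 genes also include dim ones. The labels give the array numbers as replicates, but do not say whether same-numbered replicates of both groups were handled together.

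**Figure D2:**
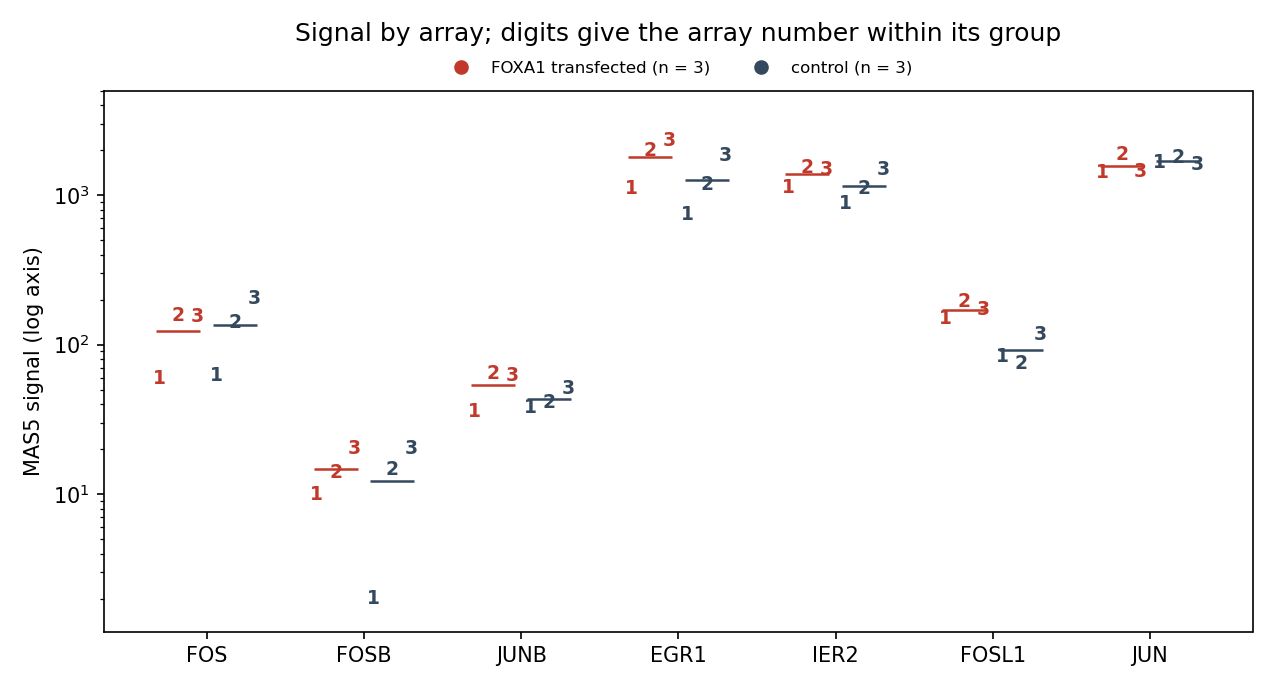
MAS5 signal on a log axis for FOS, FOSB, JUNB, EGR1, IER2, FOSL1 and JUN, with digits giving the number of each array within its group, red for FOXA1 transfected and dark blue for control, and horizontal lines for group means (n = 3 each). In FOS, FOSB, JUNB, EGR1 and IER2 the digit 1 is the lowest of both groups, whereas FOSL1 separates by group.

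JUN, the founding member of the JUN group, was read by 4 probe sets. The brightest, 201464_x_at, is of the _x_at kind that can bind related transcripts. Signals there were 1418.8, 1858.5 and 1433.3 in FOXA1 transfected arrays, against 1643.6, 1789.3 and 1605.2 in control arrays. The groups overlapped, since FOXA1 transfected array 2 was the highest of all 6 and the other FOXA1 transfected arrays were the lowest (log2 difference -0.11, SE 0.11, 95% interval -0.34 to 0.13, adjusted p = 0.753 from limma). At the next probe set the signals were 557.9, 714.8 and 755.9 in FOXA1 transfected arrays, against 614.7, 711.6 and 628.9 in control arrays, again with overlap (log2 difference 0.04). The other JUN probe sets differed by -0.20 and 0.06 with overlap, so the 4 probe sets showed no common sign. At 3 of the 4 the 95% interval reached no further than 0.30 above 0 and 0.60 below, and at the dimmest, 213281_at, it ran from -0.42 to 0.54.

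JUND, the member that is most steadily expressed and can slow proliferation, had 390.1, 362.8 and 458.3 in FOXA1 transfected arrays, against 416.5, 419.3 and 478.5 in control arrays. Array 3 was the highest of both groups, and the groups overlapped (log2 difference -0.12, SE 0.10, 95% interval -0.35 to 0.11, adjusted p = 0.708 from limma). Of its 3 dimmer probe sets, 229117_s_at had 22.8 to 24.5 in FOXA1 transfected and 16.5 to 25.8 in control arrays. At the other two, of the _x_at kind that can bind related transcripts, signals were 1.1 to 12.2 in FOXA1 transfected and 1.5 to 12.5 in control arrays. At 214326_x_at the log2 difference, -1.68 with an SE of 0.86 (limma adjusted p = 0.502), rested on signals of 1.1, 1.6 and 1.6 in FOXA1 transfected arrays. These and the 1.5 of control array 3 lay under 3.5, the 20th percentile of all signals.

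FOSL2, the Fra-2 protein, a FOS relative without a strong activation domain, was read by 5 probe sets. At the brightest its signals were 214.4, 197.8 and 212.4 in FOXA1 transfected arrays, against 192.3, 248.5 and 218.9 in control arrays. The control arrays spanned the FOXA1 transfected ones (log2 difference -0.07, SE 0.11, 95% interval -0.31 to 0.17, adjusted p = 0.853 from limma). At the next, 228188_at, they were 88.9, 125.0 and 80.4 in FOXA1 transfected arrays, against 130.2, 139.0 and 106.5 in control arrays, which overlapped through array 2 of the FOXA1 transfected group (log2 difference -0.37, SE 0.17, adjusted p = 0.455). The other 3 probe sets had log2 differences of 0.06 to 0.63, all with overlap. The sign was thus mixed over the FOSL2 probe sets, and at none of them did the groups separate as at FOSL1.

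**Figure D3:**
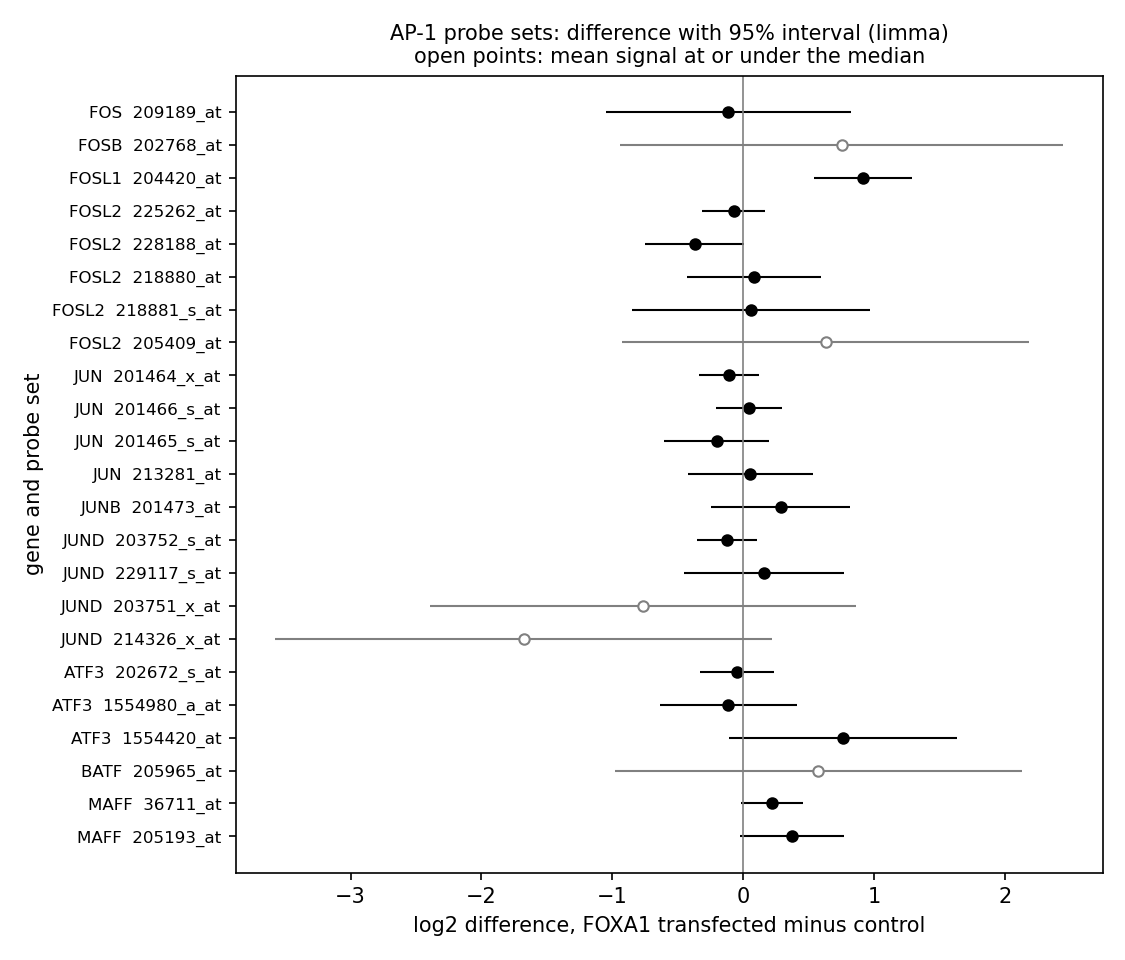
Log2 difference of MAS5 signals, FOXA1 transfected minus control, at the 23 AP-1 probe sets on the horizontal axis, with bars for the 95% interval from limma (n = 3 arrays a group) and open points where the mean signal was at or under the median of 14.5. The FOSL1 interval of 0.55 to 1.29 is the one that does not include 0.

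ATF3, a stress induced member that often represses as a homodimer, had signals of 217.5, 165.6 and 172.9 in FOXA1 transfected arrays, against 214.7, 183.9 and 174.1 in control arrays at its brightest probe set. Array 1 was the highest of both groups, and the groups overlapped (log2 difference -0.05, SE 0.13, 95% interval -0.33 to 0.23, adjusted p = 0.926 from limma). The middle probe set, 1554980_a_at, had 42.3 to 74.7 in FOXA1 transfected and 51.7 to 80.2 in control arrays (log2 difference -0.11). At the dimmest, 1554420_at, the signals were 29.4, 23.0 and 15.5 in FOXA1 transfected arrays, against 9.1, 12.2 and 19.3 in control arrays. The groups overlapped there in 1 array each, and the log2 difference, 0.76 with an SE of 0.40 (limma adjusted p = 0.508), set this probe set apart from the others of ATF3. JUN and ATF3, the pair of genes with the letters TGACATCA, had log2 differences of -0.11 and -0.05 at their brightest probe sets.

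MAFF, which pairs with CNC factors such as NFE2L2 at related sites, was read by 2 probe sets that ran the same way. At the brighter its signals were 736.8, 660.1 and 605.5 in FOXA1 transfected arrays, against 624.3, 602.4 and 493.5 in control arrays. At the other they were 103.7, 94.9 and 75.3 in FOXA1 transfected arrays, against 78.3, 78.8 and 55.1 in control arrays. Array 3 was the lowest of each group at both probe sets, and the groups overlapped through FOXA1 transfected array 3. Between groups they differed on the log2 scale by 0.22 (SE 0.11, adjusted p = 0.470 from limma) and 0.37 (SE 0.18, adjusted p = 0.466), and neither probe set passed. With each array centred on its median the brighter differed by 0.04. BATF, a lymphoid member, had 5.6, 3.5 and 11.0 in FOXA1 transfected and 4.6, 2.4 and 5.9 in control arrays, near the 20th percentile of 3.5, and no difference was detectable at these signals (log2 difference 0.58, SE 0.71).

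Around the family, no gene of the 5 lists described here passed limma over all probe sets in either direction. At the brightest probe set of each of the 19775 genes, 9.18% were higher and 5.53% lower at an unadjusted p under 0.05. Among 23 measured bZIP partners, 7 had a positive and 16 a negative difference (median -0.13), and at an unadjusted p under 0.05 there were 3 higher and 2 lower, beside 9.18% and 5.53% of all genes, of which 59.2% had a positive difference. MAFG, a small MAF protein like MAFF, had 160.7, 169.0 and 181.2 in FOXA1 transfected arrays, against 146.9, 103.0 and 143.6 in control arrays, without overlap (log2 difference 0.39, adjusted p = 0.321 from limma). A second MAFG probe set differed by -0.64 with overlap. ATF2, a JUN partner at CRE sites, had 707.2, 734.0 and 720.6 in FOXA1 transfected arrays, against 993.0, 987.3 and 733.3 in control arrays (log2 difference -0.31, adjusted p = 0.315). Its next probe set differed by 0.03. ATF5 differed by 0.51 and CREB3 by 0.26, both with overlap, and the other ATF5 probe sets differed by 0.09, -0.19 and -0.67.

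Of 15 measured kinases and serum response factors upstream of FOS and JUN, 8 had a positive and 7 a negative difference (median 0.00), and 2 were higher and 1 lower at an unadjusted p under 0.05, beside 9.18% and 5.53% of all genes. ELK1, an ETS factor that ERK phosphorylates at the FOS serum response element, had the smallest p of this list. Its signals were 377.8, 324.7 and 319.5 in FOXA1 transfected arrays, against 234.9, 206.8 and 195.0 in control arrays, without overlap (log2 difference 0.68, SE 0.11, adjusted p = 0.0590 in limma). This probe set is of the _x_at kind, and the next ELK1 probe set, 210376_x_at, differed by 0.15 with overlap. A dim one, 210850_s_at, had 11.0, 11.4 and 14.6 in FOXA1 transfected arrays, against 0.4, 0.4 and 4.9 in control arrays. It did not overlap (log2 difference 3.73, adjusted p = 0.198 from limma), with 0.4 in control arrays 1 and 2 under 3.5. RPS6KA3, the kinase RSK2, had 399.4, 413.4 and 414.9 in FOXA1 transfected arrays, against 455.6, 477.3 and 510.9 in control arrays (log2 difference -0.23, adjusted p = 0.304), but another probe set differed by 0.20. MRTFA, the actin-sensing partner of SRF, differed by 0.36 and the kinase RPS6KA1 by 0.20, both without overlap and without passing. A dim MRTFA probe set differed by -1.27, also without overlap.

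The other immediate early genes, 25 in number, were positive at 15 and negative at 10 (median 0.03), and 1 was higher and 5 lower at an unadjusted p under 0.05, beside 9.18% and 5.53% of all genes. IER3, an early gene that modulates survival, had 360.4, 417.3 and 388.8 in FOXA1 transfected arrays, against 528.4, 566.0 and 525.1 in control arrays, without overlap (log2 difference -0.47, SE 0.09, adjusted p = 0.0932 from limma). NR4A2, an orphan nuclear receptor, had 42.5, 37.6 and 49.9 in FOXA1 transfected arrays, against 73.1, 66.2 and 62.6 in control arrays (log2 difference -0.64, adjusted p = 0.195). This NR4A2 probe set is of the _x_at kind, and the others differed by -0.485 without overlap and -0.265 with overlap. IER3 and NR4A2 are in the study's table, chosen on these arrays and with the other sign there, so they are not independent evidence of a direction. NFKBIZ, an inducible IκB protein, and the zinc finger factor KLF6 had log2 differences of -0.48 and -0.31 without overlap, and 3 of the 4 other KLF6 probe sets lay below 0. The remaining KLF6 probe set, 211610_at, differed by 1.02 with overlap, at 16.8 to 30.5 in FOXA1 transfected and 6.2 to 19.6 in control arrays.

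Among 22 measured AP-1 target genes, 14 had a positive and 8 a negative difference (median 0.17), and 5 were higher and 2 lower at an unadjusted p under 0.05, beside 9.18% and 5.53% of all genes. MMP1, the interstitial collagenase whose promoter is a classic AP-1 target, had 101.2, 68.8 and 110.4 in FOXA1 transfected arrays, against 141.3, 135.9 and 172.0 in control arrays, without overlap (log2 difference -0.70, SE 0.18, adjusted p = 0.179 from limma). MMP10, stromelysin 2, had 16.6, 16.5 and 15.4 in FOXA1 transfected arrays, against 1.2, 7.9 and 5.0 in control arrays, a log2 difference of 2.16 (adjusted p = 0.279) that rests on control signals near 3.5 and was 1.36 to 2.72 over the alternatives. PLAU, the urokinase, differed by -0.28 and HBEGF, a ligand of the EGF receptor, by 0.36, both without overlap at their brightest probe sets. The targets with the smallest p thus lay on both sides of 0.

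Of 14 stress response genes that accompany ATF3, 7 had a positive and 7 a negative difference (median -0.01), and 2 were higher and 3 lower at an unadjusted p under 0.05, beside 9.18% and 5.53% of all genes. DDIT4, an inhibitor of mTORC1, had 1116.0, 870.7 and 677.0 in FOXA1 transfected arrays, against 1740.6, 1606.7 and 1457.3 in control arrays, without overlap (log2 difference -0.88, SE 0.15, adjusted p = 0.0786 from limma). GADD45A, a damage induced gene, had 876.8, 894.0 and 1009.3 in FOXA1 transfected arrays, against 1327.6, 1132.2 and 1204.6 in control arrays (log2 difference -0.40, adjusted p = 0.139). PPP1R15A, which reverses the phosphorylation of eIF2 alpha, and the chaperone partner DNAJB1 differed by 0.41 and 0.27 without overlap, but another DNAJB1 probe set differed by -0.19 with overlap. The median of each list moved with the scaling, as did that of all genes, which was 0.08 as deposited, 0.02 after quantile normalization and -0.11 with each array centred on its median.

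**Figure D4:**
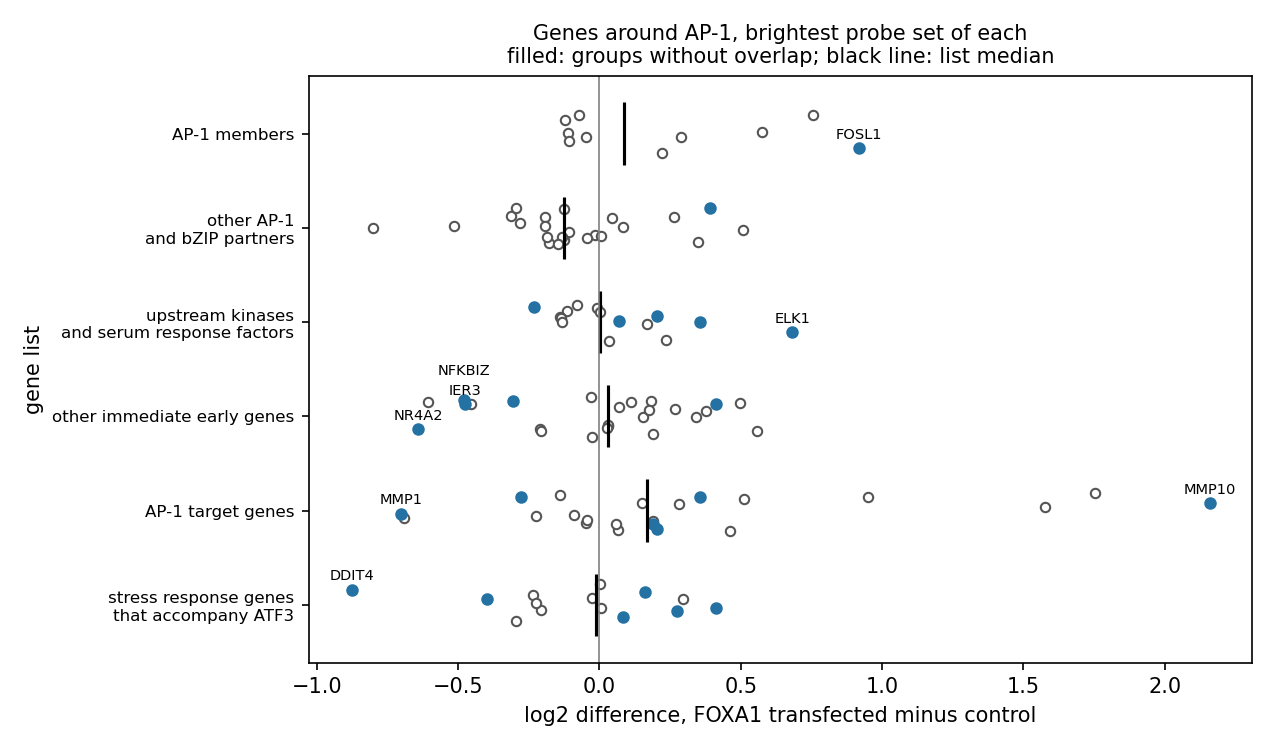
Log2 difference of MAS5 signals, FOXA1 transfected minus control, on the horizontal axis, at the brightest probe set of each gene of 6 lists (n = 3 arrays a group), with filled points where the groups do not overlap, open points where they do, and black lines for list medians. FOSL1 is the filled point of the AP-1 genes at 0.92, and no point passed limma over all probe sets.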

How the data were processed

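The authors deposited the MAS5 signal (a linear intensity) of each probe set for 3 FOXA1 transfected and 3 control arrays. The methods describe scanning in Affymetrix software, RMA log2 conversion and SAM, but the deposited intensities are not RMA values. The genome build was not given in the sources used here. Array controls (62) were left out, 25 values at 0 were set to 0.1, and log2 signals of 54613 probe sets entered limma (version 3.58.1, R 4.3.3; lmFit, eBayes with an intensity trend, two-sided, Benjamini-Hochberg adjustment over all probe sets, threshold 0.05). Exact permutation tests used all 20 splits. The fit was tested on simulated data. Symbols came from the platform annotation, in which 41091 probe sets have 1 symbol, 1801 several and 11721 none. A gene was read by its brightest probe set, and 41037 probe sets matched a current gene. The number of arrays limits the precision.

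The family and the lists (bZIP partners, upstream kinases, immediate early genes, AP-1 targets, stress genes and markers) were chosen with earlier results of these data known. Named were all family probe sets and FOXA1, up to 4 genes of each list by smallest p, and the 3 genes most correlated with the family gene of smallest p. EGR1, IER2, IER5, GADD45B, SGK1, DUSP1, CCN1 and MYC were named after their values were seen. PTPRC, CD14, VIM, KRT18, CDH1, CDH2, FN1, KRT7 and PECAM1 were named as markers, the last 4 after their values were seen. Alternatives were SAM (written here, 20 splits), limma without the trend, quantile normalization, median centring, a floor at the 20th percentile (3.5), leaving out dim (mean at or under 14.5) or _x_at probe sets, a block for the replicate number, and fits without 1 array.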

Additional observations from a re-analysis of the deposited data

How the results depend on the processing

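Of 314 values of the 23 family probe sets over 14 alternatives, 288 kept their direction and their side of the threshold, 25 turned sign at 11 probe sets and 1 (FOSL1 without dim probe sets, adjusted p = 0.0390) came to pass. That alternative therefore called 1 family probe set, where the others called 0. With each array centred on its median, values turned to -0.10 and -0.12 at 2 FOSL2 probe sets (218880_at and 218881_s_at), to -0.14 and -0.13 at 2 of JUN (201466_s_at and 213281_at) and to -0.021 at JUND 229117_s_at, and quantile normalization turned FOSL2 218881_s_at to -0.12. The others turned without 1 array. Over these, values ranged from -0.59 to 0.35 for FOS, from -0.28 to 1.39 for FOSB, from -0.17 to 0.02 for FOSL2 225262_at, from -0.073 to 0.27 for 218880_at, from -0.28 to 0.38 for 218881_s_at and from -0.24 to 1.07 for 205409_at. For JUN they ranged from -0.042 to 0.18 and from -0.17 to 0.31, for JUND 229117_s_at from -0.025 to 0.30, and for ATF3 from -0.17 to 0.04 and from -0.33 to 0.10. Of 319 values of 23 other genes, 313 kept both, none turned sign, and 6, of ELK1, IER3 and DDIT4, came to pass. Over all probe sets 32 passed, and 3 by SAM, 1 by limma without the trend, 7 after median centring, 174 without dim probe sets, 85 with the replicate number as a block, and 4 to 76 without 1 array. The causes were not tested.

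Array numbers were not used as pairs, since deviations of same-numbered arrays correlated by 0.044, 0.164 and 0.107 above the median signal. Every array there correlated best with its own number, a hint from the data and not the design. The block called 0 family probe sets (FOSL1 adjusted p = 0.0569), and ELK1 (0.0265) and DDIT4 (0.0130) passed with it. Dim signals limit FOSB, BATF and the dim probe sets of FOSL2 and JUND.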

Other observations

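Among 12122 genes whose brightest probe set was above the median signal, the 3 whose log2 signals followed FOSL1 most closely over the 6 arrays were PDLIM3 (r = 0.997), CS (r = 0.996) and TUBG1 (r = 0.995). The arrays share their groups, and 510 of the genes had an r above 0.9. PDLIM3, an actin-associated LIM protein, had 24.8, 29.8 and 27.6 in FOXA1 transfected arrays, against 17.1, 16.4 and 22.3 in control arrays. CS, the citrate synthase of mitochondria, had 1213.1, 1270.4 and 1225.0 in FOXA1 transfected arrays, against 1050.5, 1021.8 and 1140.1 in control arrays, and TUBG1, the gamma tubulin of centrosomes, had 1096.3, 1147.1 and 1128.4 in FOXA1 transfected arrays, against 954.5, 907.9 and 1024.2 in control arrays. In all 3 the groups did not overlap, which the choice by correlation with FOSL1 brings about and which is no separate result. Over all probe sets 10.5% had FOXA1 transfected arrays above all control arrays. The log2 differences of the 3 were 0.57, 0.21 and 0.23, and none passed limma over all probe sets (adjusted p = 0.463, 0.317 and 0.291).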
